A study of Mus musculus with 11 samples.

Results

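The 7 protein-coding genes described here, Lsmem1, Gp5, Celsr3, B4galnt4, Fam162a, Trim35 and Bricd5, had lower nascent exon reads after treatment with an siRNA against Zc3h4. They were picked by name from the 13088 genes of an exon-based table because both libraries labelled siZC3H4 lay below the non-targeting controls, so the exon difference itself is given as a description, with no test. The samples were wild-type F121-9 mouse embryonic stem cells, an established female CAST/129 hybrid line grown in serum-free medium with LIF and inhibitors of MEK and GSK3. They received 30 nM of an siRNA against Zc3h4 (libraries labelled siZC3H4, replicates 2 and 3) or 30 nM of a non-targeting siRNA (siNT, replicates 1, 2 and 3), and both groups took up 500 µM 4-thiouridine for the last 20 minutes before harvest at 47 hours. RNA that had incorporated 4-thiouridine was fragmented, biotinylated and pulled down before sequencing (TT-seq), so reads report RNA made during the label. The series calls the samples biological replicates without saying that they came from separate cultures, so p-values measure the spread between these samples, which may be partly technical. The series also holds 3 dTAG-13 and 3 DMSO samples of cells with a degradable ZC3H4, and those are not analysed here.

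The Restrictor complex, built around ZC3H4 and WDR82, ends or weakens transcription soon after initiation, chiefly that of noncoding RNA. Among its known targets are upstream antisense RNAs (uaRNAs), short-lived transcripts that leave a promoter away from the gene, and similar divergent long noncoding RNAs. Loss of the complex is therefore known mainly for raised noncoding RNA. They have no shared textbook pathway: Gp5 encodes a platelet glycoprotein, Celsr3 an atypical cadherin of planar cell polarity, Lsmem1 a small single-pass membrane protein, B4galnt4 a glycosyltransferase, Trim35 a ubiquitin ligase of the TRIM family, Fam162a a mitochondrial protein and Bricd5 a BRICHOS-domain protein.

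Values are exon reads after the authors' scaling for depth, called depth-normalized reads. Before that scaling the libraries labelled siZC3H4 held 26548710 and 16173640 exon reads and the siNT libraries 14840637 to 18479834. Exon reads of Zc3h4 itself were 7285 and 6718 in the libraries labelled siZC3H4, against 3465, 3610.4 and 3363 in siNT libraries. This is a rise of log2 1.01 ± 0.11 SE (limma adjusted p = 0.00431) and goes against the label of a knockdown. The reads are of newly made RNA, and how much of the mature transcript was left is not analysed here, so each direction below is tied to the label as given. Summed reads of 8 naive pluripotency markers were 75986 and 92314 in the libraries labelled siZC3H4 and 89522 to 106425 in siNT libraries, and all 8 were measured, as the cell label requires. None of the 8 passed the test, but 7 stood below 0, with a median log2 of -0.09 and the lowest value, -0.48, for Klf4. Their part in the lower reads of the 7 genes was not tested. In bulk samples fewer cells of a type and less RNA per cell cannot be told apart.

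Lsmem1 had the lowest fold of the 7. Its depth-normalized reads were 23.8 and 27.7 in the libraries labelled siZC3H4, against 106, 91.3 and 69.97 in siNT replicates 1, 2 and 3. The groups were far from overlapping, since the lowest siNT library was 2.52 times the highest library labelled siZC3H4. The means were 25.7 ± 2.80 (SD, n = 2) and 89.1 ± 18.1 (SD, n = 3), a log2 fold of -1.74 ± 0.28 SE. The gene (ENSMUSG00000071342, chromosome 12, 40175493 to 40200177, mm10, minus strand) was also the most thinly read of the 7, with 42 and 29 whole reads in the libraries labelled siZC3H4 and 106, 105 and 82 in siNT libraries.

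Of the cell-surface genes, Gp5 encodes glycoprotein V of the platelet receptor for von Willebrand factor (ENSMUSG00000047953, chromosome 16, 30307685 to 30311552, minus strand). It had 83.8 and 110.9 depth-normalized reads in the libraries labelled siZC3H4, against 287, 184 and 200.5 in siNT libraries (log2 -1.18 ± 0.25 SE). Replicate 1 stood above the other siNT libraries, and the groups did not overlap. Celsr3, whose cadherin guides growing axons in the mouse brain (ENSMUSG00000023473, chromosome 9, 108826045 to 108852969, plus strand), had 154 and 151 reads against 280, 395 and 290.1 (log2 -1.05 ± 0.20 SE). Its libraries labelled siZC3H4 differed by a factor of only 1.02, while siNT replicate 2 stood above the other siNT libraries. Celsr3 has the longest transcript of the 7, 11822 bases, so that per kilobase it was the lowest of them in siNT libraries.

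Of the enzymes, B4galnt4 adds N-acetylgalactosamine to N-acetylglucosamine on glycoproteins (ENSMUSG00000055629, chromosome 7, 141060968 to 141072119, plus strand). It had the most reads of the 7, 1313 and 1038 in the libraries labelled siZC3H4 and 2236, 2689 and 1940.3 in siNT libraries (log2 -0.96 ± 0.17 SE). The groups did not overlap, but the gap was the smallest of the 7, with the lowest siNT library 1.48 times the higher library labelled siZC3H4. Trim35 (ENSMUSG00000022043, chromosome 14, 66297066 to 66311424, plus strand) had 774 and 848 reads in the libraries labelled siZC3H4, against 1545, 1423 and 1717 in siNT libraries (log2 -0.94 ± 0.13 SE). It had the smallest standard error of the 7.

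Fam162a encodes a mitochondrial protein whose human counterpart is induced by HIF-1 in low oxygen and promotes cell death (ENSMUSG00000003955, chromosome 16, 36043761 to 36071558, minus strand). It had 225 and 193 reads in the libraries labelled siZC3H4, against 368, 442 and 409 in siNT libraries (log2 -0.95 ± 0.17 SE). The siNT libraries lay within a factor of 1.20 of each other, the closest siNT agreement among the 7. Bricd5 (ENSMUSG00000045744, chromosome 17, 24473331 to 24475469, plus strand) had 178 and 186 reads in the libraries labelled siZC3H4, against 398, 350.4 and 282 in siNT libraries (log2 -0.90 ± 0.19 SE). Its span of 2139 bases is the shortest of the 7, and 4.00% of the coding genes tested have a shorter one.

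**Figure D1:**
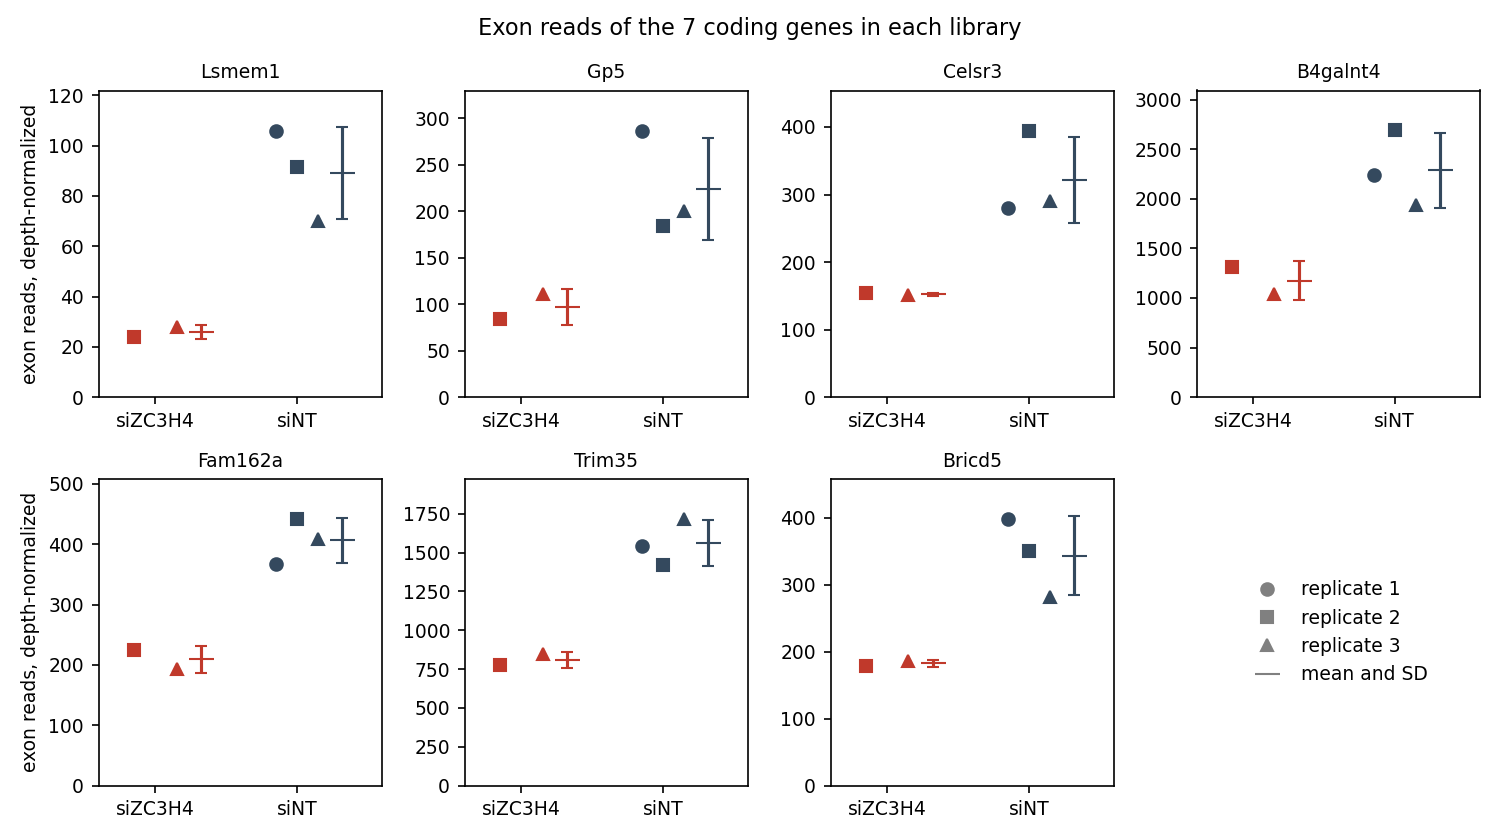
Depth-normalized exon reads (y axes, from 0) of the 7 genes in each library, siZC3H4 left and siNT right; symbols give the replicate number and bars the mean and SD. In every panel both libraries labelled siZC3H4 lie below all 3 siNT libraries, from 23.8 and 27.7 against 69.97 to 106 reads for Lsmem1 up to 1313 and 1038 against 1940.3 to 2689 for B4galnt4.

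For all 7 genes the siNT libraries lay above both libraries labelled siZC3H4, as for 12.8% of the 12482 genes tested, while 19.5% of genes lay the other way round. This is how they were chosen, and nothing is read from it. The same holds for their place among the 18 genes called lower (0.144% of genes tested, limma, siZC3H4 minus siNT, adjusted p under 0.05), of which 17 were protein-coding. That count was 0 without siNT replicate 1 or without siZC3H4 replicate 2, 3 without siZC3H4 replicate 3, 11 without siNT replicate 2 and 137 without siNT replicate 3. The median log2 fold of the 7 was -0.96, beside 0.01 over all genes tested. Just outside Bricd5 by fold among coding genes were Rec8, a meiotic cohesin subunit, at log2 -0.89, Kcnma1, a potassium channel, at -0.89 and Rln3, a relaxin, at -0.88. Rec8 had 78.1 and 107 reads in the libraries labelled siZC3H4 and 227, 126 and 174 in siNT libraries, and none of these 3 passed the threshold.

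By the size of the fold the 7 were not alone. Of 11595 coding genes tested, 55 had a fold at or below that of Bricd5, and 50 of these had groups that did not overlap. Among the 55, 10 passed the threshold: the 7, the meiotic gene Stra8, and the histone genes H2aw and H2bu2. The other 45 did not pass, and 25 of the 55 averaged under 100 reads in siNT libraries. The 7 were chosen on this same contrast, so nothing is read from their place among the 10. Counted from the lowest fold among coding genes, Lsmem1 ranked 2, after Stra8, Gp5 ranked 16 and Bricd5 55.

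**Figure D2:**
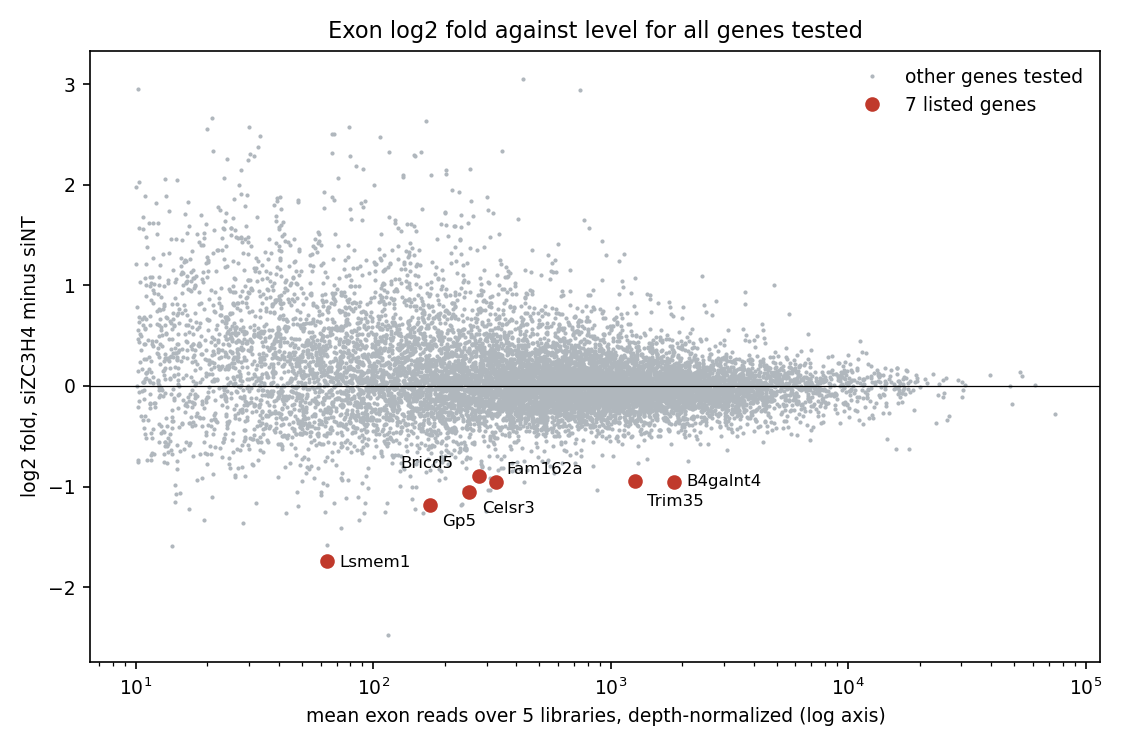
Log2 fold of exon reads (siZC3H4 minus siNT, y axis) against the mean depth-normalized reads over 5 libraries (x axis, log scale) for the 12482 genes tested, with the 7 genes as large points. B4galnt4 and Trim35 stand at the low edge of the cloud at a higher level than the other 5, and Lsmem1 has the lowest fold at the lowest level.

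The 7 genes covered a wide range of levels. Per kilobase of transcript, in libraries labelled siZC3H4 and then in siNT libraries, mean depth-normalized reads were 345 and 671 for B4galnt4, 275 and 534 for Fam162a, and 223 and 429 for Trim35. Bricd5 had 118 and 222 reads per kilobase, Gp5 32.8 and 75.4, Lsmem1 9.07 and 31.4, and Celsr3 12.9 and 27.2. The order in siNT libraries thus ran from B4galnt4, above 80.4% of coding genes tested, down to Celsr3, above 11.8%. The genes did not vary as a block within a group. The highest siNT library was replicate 1 for Lsmem1, Gp5 and Bricd5, replicate 2 for Celsr3, B4galnt4 and Fam162a, and replicate 3 for Trim35. Of the libraries labelled siZC3H4, replicate 2 was the lower for Lsmem1, Gp5, Trim35 and Bricd5 and replicate 3 for the other 3.

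The 5 genes whose profile over the 5 libraries lay nearest the mean centred profile of the 7, by Euclidean distance on the log2 scale, were H2aw (distance 0.196), Scg5 (0.225), H2bu2 (0.296), Sfn (0.321) and Stk26 (0.372). The median distance over all other tested genes was 1.31. The 7 themselves lay between 0.307 for Bricd5 and 0.756 for Lsmem1 from that mean. These distances share the libraries and the contrast that chose the genes and describe likeness over 5 points only. H2aw and H2bu2 belong to a histone family whose members can share reads.

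The sequences before the RefSeq starts differed in CpG content. RefSeq windows (GRCm38.p6, the 250 bases before the start) were matched by symbol for 6 of the 7, and Trim35 is named only. The number of CpG dinucleotides was 0 for Gp5, 1 for Bricd5, 7 for Lsmem1, 17 for Celsr3 and 30 for both B4galnt4 and Fam162a, beside a median of 16 and quartiles of 9 and 23 over 11718 windows of coding genes tested. The windows of Lsmem1 (chr12:40199316-40199565, minus strand) and B4galnt4 (chr7:141060728-141060977, plus strand) are shown, 5′ to 3′, with each CpG in capitals. They set a CpG-poor window beside a CpG-rich one.
Lsmem1: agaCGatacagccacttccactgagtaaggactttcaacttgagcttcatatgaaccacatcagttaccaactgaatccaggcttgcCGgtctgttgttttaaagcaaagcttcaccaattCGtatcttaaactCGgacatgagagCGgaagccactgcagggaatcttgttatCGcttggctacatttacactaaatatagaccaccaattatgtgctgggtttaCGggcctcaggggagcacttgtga
B4galnt4: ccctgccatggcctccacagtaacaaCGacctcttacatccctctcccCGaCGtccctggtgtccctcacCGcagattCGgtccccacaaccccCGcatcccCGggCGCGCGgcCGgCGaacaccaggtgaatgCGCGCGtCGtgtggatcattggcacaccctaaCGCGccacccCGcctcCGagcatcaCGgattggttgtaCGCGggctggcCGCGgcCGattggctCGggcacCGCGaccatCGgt
The marked CpGs number 7 in Lsmem1 and 30 in B4galnt4, and the exon log2 folds of these genes were -1.74 and -0.96. A link between CpG number and fold was not tested. The RefSeq start used for the window differs from the table's gene start by 862 bases for Lsmem1, 771 for Gp5 and 553 for Bricd5. For the other 3 windows it differs by at most 10. The windows of Lsmem1, Gp5 and Bricd5, the 3 poorest in CpG, lie inside the genes' spans in the table. They may thus not be the promoters in use. The RefSeq span of Bricd5 starts at 24473487, also before its window (24473634 to 24473883). That of Celsr3 starts at 108826023, against 108826045 in the table.

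Because Fam162a is known as a hypoxia-induced gene, its window was read on both strands for ACGTG, a form of the core of the hypoxia response element. Other forms of that core, such as GCGTG, were not searched. The window (chr16:36071562-36071811, minus strand) holds ACGTG once, on the opposite strand, shown as CACGT in capitals.
Fam162a: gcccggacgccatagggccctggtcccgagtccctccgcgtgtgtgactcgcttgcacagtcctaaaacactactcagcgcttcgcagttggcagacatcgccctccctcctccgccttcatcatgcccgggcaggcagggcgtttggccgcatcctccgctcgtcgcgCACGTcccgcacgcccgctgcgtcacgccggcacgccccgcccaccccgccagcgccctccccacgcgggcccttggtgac
The first base of this match lies 81 bases before the RefSeq start of Fam162a. The window also holds the start of the head-to-head gene Ccdc58 (36071665, plus strand), so it is not the sequence of Fam162a alone. ACGTG occurred in 21.9% of the coding windows and in none of the other 5 windows of these genes. Of the other motifs searched on both strands, TATAAA was in 0 of the 6 windows (6.2% of coding windows), and CCAAT was in those of Lsmem1, B4galnt4 and Bricd5 (36.3%). GGGCGG was in those of Celsr3 and Fam162a (60.0%), and GGTAAG, which resembles a 5′ splice site, was in that of Gp5 (6.2%). A match is a run of letters and not evidence of binding.

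The surroundings of the genes were read from the table's coordinates, taking each overlapping counted gene and the nearest counted gene on each side. Of the 16 neighbours, 15 were tested, 1 rose and 0 fell by limma, beside 2.22% and 0.144% of all genes tested. At an unadjusted p under 0.05, 2 neighbours were higher and 1 lower, beside 11.0% and 4.39% of all genes tested. Both edgeR and DESeq2 called 1 neighbour higher and 0 lower, where edgeR called 2.76% of all genes higher and 0.152% lower, and DESeq2 4.3% and 0.777%. With 15 neighbours, these counts set nothing apart from the other genes. By the table's coordinates, a head-to-head counted gene starting within 1 kb upstream was present for 2 of the 7 genes, Fam162a and Trim35, beside 14.1% of coding genes tested. RefSeq also places an lncRNA, Gm39114, across the start of B4galnt4 with 72 bases of overlap, and its reads are not analysed here. A same-strand gene ending within 5 kb upstream was present for 3, Lsmem1, Gp5 and Bricd5, beside 10.9%. A counted gene overlapped the span of Fam162a and of Bricd5, beside 10.7% of coding genes.

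**Figure D3:**
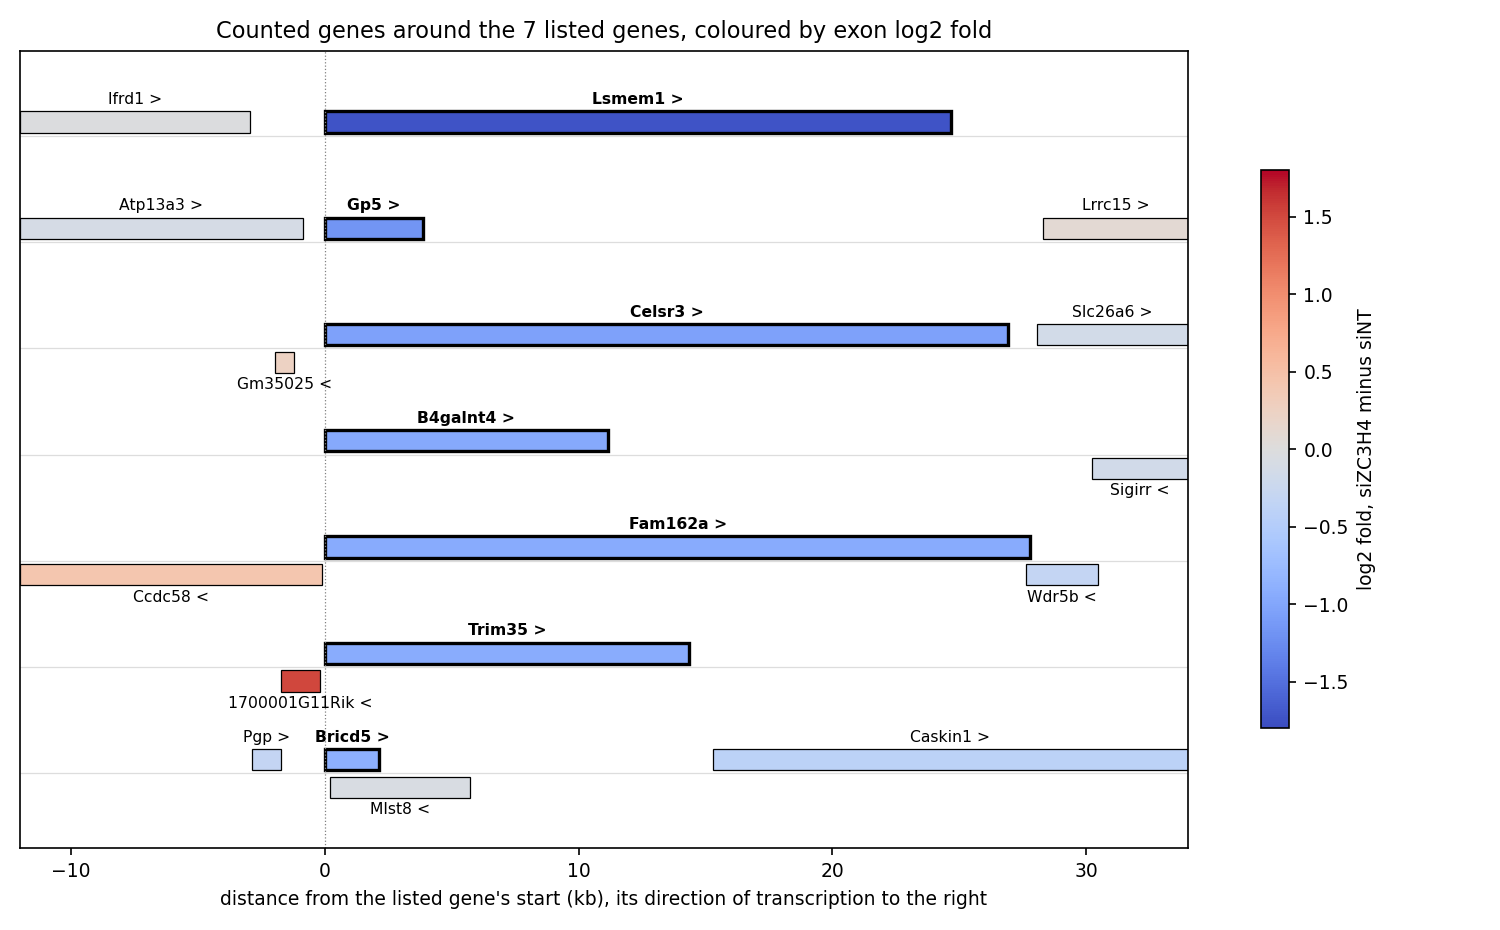
Counted genes around the start of each of the 7 genes (x axis, distance from the start in kb, with the listed gene running to the right), with the listed gene outlined heavily, same-strand genes above the line and opposite-strand genes below it, and the fill giving the exon log2 fold. The divergent lncRNA 1700001G11Rik beside Trim35 is the darkest red at log2 1.51, while the listed genes are blue; neighbours farther away lie outside the frame.

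The neighbour that rose was 1700001G11Rik, a long noncoding RNA that starts 194 bases from the Trim35 start and runs the other way (chromosome 14, 66295335 to 66296872, minus strand). It had 207 and 145 depth-normalized reads in the libraries labelled siZC3H4, against 61, 80 and 44.4 in siNT libraries. The groups did not overlap, and the means were 176 ± 43.3 (SD, n = 2) and 61.8 ± 17.8 (SD, n = 3). The rise was log2 1.51 ± 0.30 SE (limma adjusted p = 0.0339), and the adjusted p was 0.177 without siNT replicate 1, 0.354 without siZC3H4 replicate 2, 0.0666 without siZC3H4 replicate 3 and 0.108 with no filter on low values. Reads of this lncRNA came to 0.267 and 0.171 of those of Trim35 in the libraries labelled siZC3H4 and to 0.0258 to 0.0562 in siNT libraries. In RefSeq its span reaches 64 bases into that of Trim35, and the sources used here do not say whether counting used the strand, so reads of that overlap cannot be assigned to either gene.

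Fam162a has a comparable arrangement with Ccdc58, a coding gene that starts 107 bases away and runs the other way. Ccdc58 had 772 and 775 exon reads in the libraries labelled siZC3H4, against 486, 557 and 699 in siNT libraries (log2 0.43 ± 0.17 SE, limma adjusted p = 0.273). The groups did not overlap, but the difference did not pass the test over all genes, although its adjusted p was 0.0429 without siNT replicate 3. At the other end of Fam162a, Wdr5b, a paralogue of the WD40 gene Wdr5, overlaps it by 168 bases on the opposite strand. Wdr5b had 353 and 417 reads in the libraries labelled siZC3H4 and 571, 349.6 and 543 in siNT libraries (log2 -0.31 ± 0.22 SE, limma adjusted p = 0.598), with overlapping groups. Celsr3 also faces an lncRNA, Gm35025, with 1226 bases between starts in the table's annotation, while its RefSeq span reaches 76 bases into that of Celsr3. Gm35025 had 46.4 and 49.7 reads against 31, 36.5 and 57.2 in siNT libraries (log2 0.25 ± 0.32 SE, limma adjusted p = 0.812), and its groups overlapped.

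Rows of the uaRNA table, matched by gene identifier, were present for 2 of the 7 genes, B4galnt4 and Bricd5, while 50.0% of coding genes tested had one. As the same contrast chose the genes, these values are given with no test. The B4galnt4 uaRNA had 508 and 215 depth-normalized reads in the libraries labelled siZC3H4, against 450, 658 and 279 in siNT libraries (log2 -0.40 ± 0.26 SE). Its groups overlapped, and replicate 2 was highest and replicate 3 lowest in both groups, as for B4galnt4 exon reads. Without siZC3H4 replicate 3 its log2 value turned to 0.22.

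The Bricd5 uaRNA had 227.5 reads in each library labelled siZC3H4, from 402 and 238 whole reads, against 444, 257 and 329 in siNT libraries (log2 -0.56 ± 0.24 SE). Both libraries labelled siZC3H4 were thus below all 3 siNT libraries, as for 2.11% of 5124 uaRNAs tested, while 73.7% lay the other way round and 1.13% were called lower. Without siNT replicate 1 its log2 value was -0.35. The median log2 over all uaRNAs tested was 0.88. In 4 of the 5 libraries this region had more reads than the Bricd5 exons, 128% and 122% of them in the libraries labelled siZC3H4 and 73.4% to 117% in siNT libraries. Mlst8, which encodes a subunit of the mTOR complexes, lies on the opposite strand and covers 1920 of the 2139 bases of Bricd5. Its annotated end lies inside Bricd5 near the Bricd5 start, so RNA running past the end of Mlst8 and antisense RNA of the Bricd5 promoter lie on the same strand and cannot be told apart here.

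**Figure D4:**
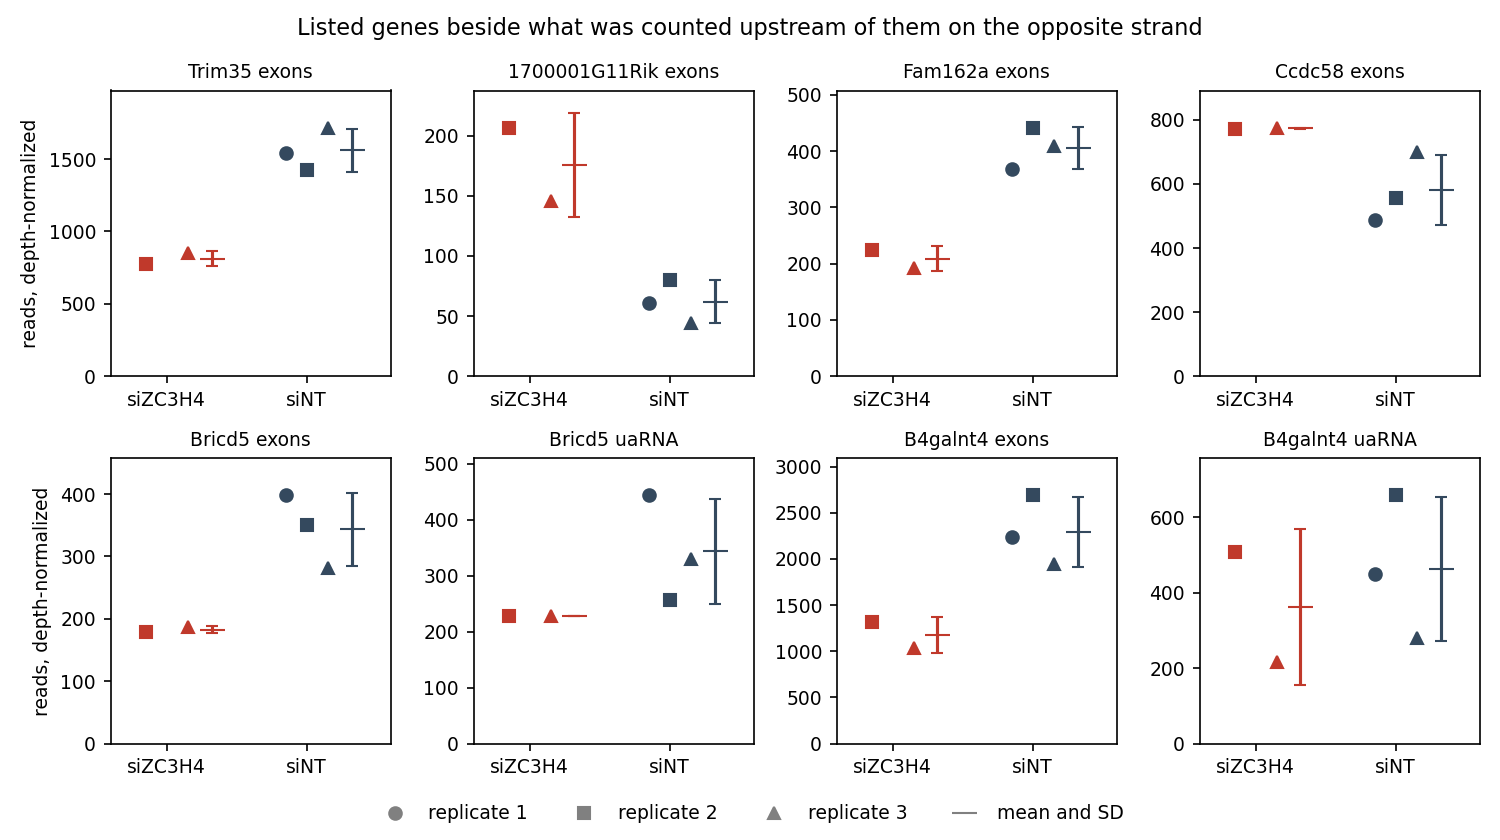
Depth-normalized reads (y axes, from 0) of 4 listed genes, each followed by what was counted upstream on the opposite strand: 1700001G11Rik for Trim35, Ccdc58 for Fam162a, and the uaRNA rows of Bricd5 and B4galnt4; siZC3H4 left, siNT right, with mean and SD. Trim35 is lower and 1700001G11Rik higher in both libraries labelled siZC3H4, while the B4galnt4 uaRNA overlaps between groups.

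Exon reads of Mlst8 were 2567 and 2408 in the libraries labelled siZC3H4 and 2776, 2728 and 2339 in siNT libraries (log2 -0.07 ± 0.12 SE, limma adjusted p = 0.882), with overlapping groups. Mlst8 thus carried 14.4 and 12.9 times the reads of Bricd5 in the libraries labelled siZC3H4, against 6.97 to 8.31 times in siNT libraries. Whether counting kept the strands apart is unknown, so reads of the 1920 shared bases cannot be assigned to either gene. That limit holds for this ratio and for the exon reads and fold of Bricd5. The uaRNA of Mlst8 rose, with 61.1 and 53.5 reads in the libraries labelled siZC3H4 and 25, 21.7 and 23.0 in siNT libraries (log2 1.26 ± 0.35 SE, limma adjusted p = 0.00171). By the table's coordinates Pgp, a phosphoglycolate phosphatase gene, ends 1728 bases before Bricd5 on the same strand. In RefSeq it reaches 24473110, close to the Bricd5 start at 24473331 in the table. Pgp had 514 and 428 exon reads in the libraries labelled siZC3H4, against 609, 640 and 508 in siNT libraries (log2 -0.31 ± 0.17 SE, limma adjusted p = 0.430). The Pgp uaRNA rose, with 592 and 492 reads against 297, 314 and 290.1 in siNT libraries (log2 0.84 ± 0.22 SE, limma adjusted p = 0.00109). Rises of this kind passed the limma test for 62.1% of uaRNAs, beside which the Bricd5 row stood at log2 -0.56. Rescaling the uaRNA table on itself, which takes out the general rise, put Bricd5 at -1.42, Mlst8 at 0.42 (limma adjusted p = 0.295) and Pgp at -0.020 (TMM).

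Lsmem1 and Gp5 each lie downstream of a well-read gene on the same strand. Ifrd1, an interferon-related regulator, ends 2951 bases before the Lsmem1 start and had 2108 and 2467 exon reads in the libraries labelled siZC3H4, against 2143, 2138 and 2698 in siNT libraries (log2 -0.02 ± 0.14 SE, limma adjusted p = 0.975). Atp13a3, a polyamine-transporting ATPase, ends 870 bases before the Gp5 start and had 2144 and 2089 exon reads against 2251, 2606 and 2022 (log2 -0.11 ± 0.13 SE, limma adjusted p = 0.806). Both neighbours overlapped between groups, so the lower reads of Lsmem1 and Gp5 were not accompanied by a called change of the gene before them. Ifrd1 had 88.7 and 89.0 times the reads of Lsmem1 in the libraries labelled siZC3H4 and 20.2 to 38.6 times in siNT libraries. The uaRNA of Atp13a3 rose by log2 0.60 ± 0.26 SE (limma adjusted p = 0.0370), with 264 and 201 reads against 146, 122 and 197. That of Wdr5b rose by 1.03 ± 0.41 SE (limma adjusted p = 0.0261). It had a low level, with 30.0 and 32.5 reads in the libraries labelled siZC3H4 and 13, 20.9 and 11.9 in siNT libraries. The Atp13a3 start lies 77283 bases from that of Gp5, and the Wdr5b start lies beyond the end of Fam162a. The Atp13a3 call was lost without siNT replicate 1 (adjusted p = 0.107), siNT replicate 2 (0.139) or siZC3H4 replicate 2 (0.313), and its direction turned to log2 -0.26 under TMM. It was also lost with DESeq2 (adjusted p = 0.0621) and with no filter on low values (limma adjusted p = 0.0676). The Wdr5b call was lost without siNT replicate 1 (adjusted p = 0.0621), siNT replicate 3 (0.0694), siZC3H4 replicate 2 (0.113) or siZC3H4 replicate 3 (0.137), and with DESeq2 (0.0737). Under TMM it stood at log2 0.20 (limma adjusted p = 0.742).

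The remaining neighbours did not pass the test. Beside B4galnt4, Ifitm3, an interferon-induced membrane protein gene 50268 bases away, had 908 and 654 reads in the libraries labelled siZC3H4 and 1141, 1290 and 974 in siNT libraries (log2 -0.55 ± 0.18 SE, limma adjusted p = 0.173, and 0.0209 without siNT replicate 3). Sigirr, a negative regulator of interleukin-1 signalling, stood at log2 -0.17. Slc26a6, Lrrc15, Kpna1, Dpysl2 and Caskin1 had log2 values between -0.40 and 0.09, with limma adjusted p from 0.355 to 0.940. Dpysl2, beside Trim35, had 298 and 310 reads in the libraries labelled siZC3H4 and 387, 357 and 408 in siNT libraries. Groups of Ifitm3 and Dpysl2 did not overlap, as for 12.8% of all genes tested in this direction. Those of Sigirr, Slc26a6, Lrrc15, Kpna1 and Caskin1 overlapped. Scin, the counted gene beyond the end of Lsmem1, had a mean under 10 reads and was not tested.

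Genes with related roles were then read in the same fit, with lists chosen while earlier results of these data were known. Over 6 lists, 85 rows were tested, with Aldoa counted more than once. Of these, 0 rose and 0 fell by limma, beside 2.22% and 0.144% of all genes tested. At an unadjusted p under 0.05, 5 were higher and 3 lower, where 11.0% and 4.39% of all genes tested were, and edgeR and DESeq2 called 0 list genes in either direction. The median log2 over these 85 was -0.03.

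Around Celsr3, 15 planar cell polarity genes were tested, with a median log2 of 0.02 and 6 below 0. Its paralogue Celsr2 had 238 and 330 reads in the libraries labelled siZC3H4 and 384, 386 and 399 in siNT libraries (log2 -0.48 ± 0.18 SE, limma adjusted p = 0.248). Fzd3, the frizzled receptor that acts with Celsr3 in axon guidance in the mouse, had 181 and 191 reads against 296, 237 and 294 (log2 -0.56 ± 0.18 SE, limma adjusted p = 0.175). For both genes the groups did not overlap, as for 12.8% of all genes tested in this direction, without passing the test. The best-read members, Prickle2 and Scrib, stood at log2 -0.32 and 0.01. On the other side, 9 of the 15 stood above 0. Among them were Vangl1 at log2 0.44, Fzd6 at 0.34, Ankrd6 at 0.30 and Ptk7 at 0.24 (named after their values were seen).

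Around B4galnt4, 10 transferases of the same linkage were tested, with a median log2 of -0.05 and 6 below 0. B4galnt3, which makes the same disaccharide, had 1904 and 1910.1 reads in the libraries labelled siZC3H4 and 1799, 2313 and 1933 in siNT libraries (log2 -0.07 ± 0.14 SE, limma adjusted p = 0.890), so its groups overlapped. B4galt5, B4galt3 and B4galnt2 stood at log2 -0.06, -0.19 and 0.46.

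Around Fam162a, 28 rows of hypoxia and HIF target genes were tested, including 2 rows named Aldoa, with a median log2 of -0.07 and 18 below 0. Gapdh, a glycolytic enzyme, stood at log2 -0.07 and the better-read Aldoa row at -0.03. P4ha2, a collagen prolyl hydroxylase subunit, had 183 and 173 reads in the libraries labelled siZC3H4 and 117, 125 and 102 in siNT libraries (log2 0.63 ± 0.20 SE, limma adjusted p = 0.159), and Bhlhe40, a hypoxia-induced repressor, stood at 0.53. On the side of Fam162a, Tpi1 and Ldha, both glycolytic enzymes, stood at log2 -0.41 each and Adm, the adrenomedullin gene, at -0.46 (named after their values were seen). Adm had a low level, with means of 10.3 reads in the libraries labelled siZC3H4 and 14.3 in siNT libraries. None of the 28 rows passed the test.

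Around Trim35, 28 other numbered Trim genes were tested, with a median log2 of 0.05 and 12 below 0. Trim28, the KAP1 corepressor, and Trim71, a stem cell regulator, had the most reads and stood at log2 0.06 and 0.11. Trim52 had 7.36 and 3.82 reads in the libraries labelled siZC3H4 and 15, 12.2 and 32.4 in siNT libraries (log2 -1.59 ± 0.51 SE, limma adjusted p = 0.164), a low level, and Trim68 stood at 1.05 ± 0.34 SE (adjusted p = 0.160). Around Bricd5, the BRICHOS genes Itm2a, Itm2b and Itm2c stood at log2 -0.27, -0.05 and -0.21. For Gp5, of the platelet and megakaryocyte list only Itgb3, the integrin beta-3 gene, was tested, at log2 0.05. No row of the exon-based table was named Gp1ba, Gp1bb or Gp9, the other subunits of the glycoprotein Ib-IX-V receptor. Rows were also absent for all 5 megakaryocyte and platelet markers listed (Pf4, Ppbp, Itga2b, Gp9 and Gp1bb).

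**Figure D5:**
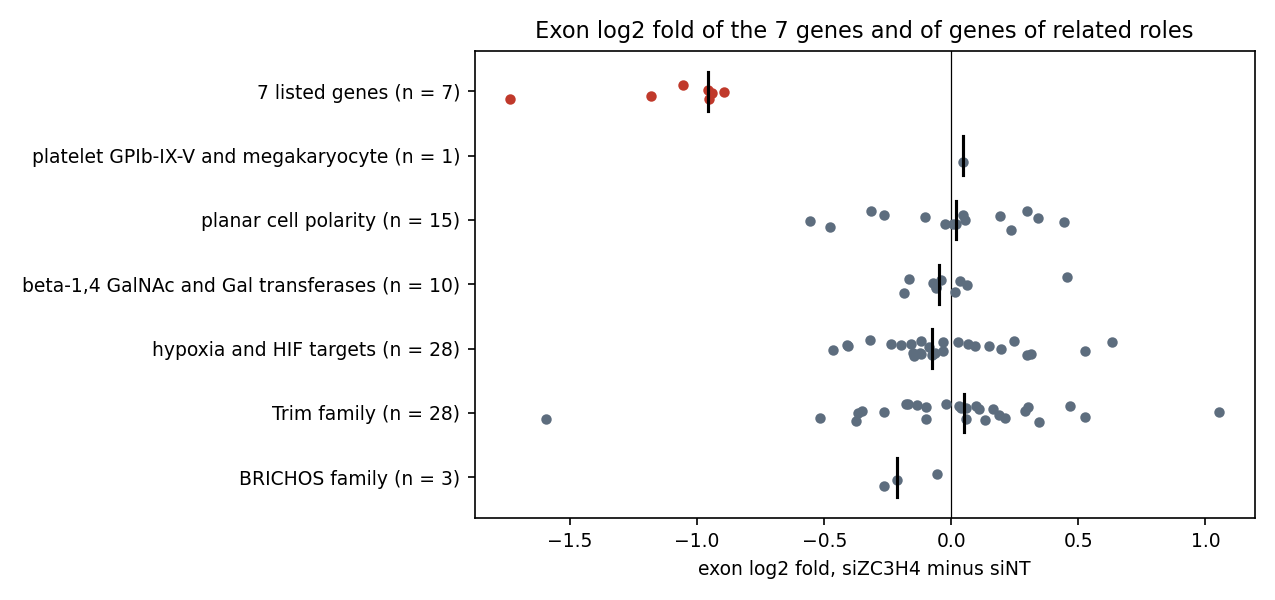
Exon log2 fold (siZC3H4 minus siNT, x axis) of the 7 genes (top row) and of the tested members of 6 lists of related genes, 1 point per row of the table, with the median as a vertical bar. The 7 lie between -1.74 and -0.90 because they were chosen so, while list medians lie between -0.21 and 0.05.

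Markers of other cell types were read beside these values. Summed reads of the 3 measured neuron markers of 5 listed (Tubb3, Map2 and Elavl3) were 1547 and 1171 in the libraries labelled siZC3H4 and 1056, 1016 and 762 in siNT libraries. Most of these reads were of Tubb3, with 1435 and 1050 reads against 962, 940 and 629 in siNT libraries (log2 0.57 ± 0.21 SE, limma adjusted p = 0.241). Neither the sum nor Tubb3 overlapped between groups, where 19.5% of all genes tested lay higher without overlap. Map2 (log2 0.27) overlapped between groups, and Elavl3 stood at log2 0.23. All 3 stood above 0, and none of the 3 passed the test. Summed reads of 3 measured fibroblast or feeder markers of 6 listed (Fn1, Vim and Thy1) were 30349.7 and 31587 in the libraries labelled siZC3H4 and 29217 to 34705 in siNT libraries, and overlapped. Most of these reads were of Fn1 (log2 -0.10), so the sum says little of the others. Vim had 2305 and 1830 reads against 1300, 1852 and 1573 in siNT libraries (log2 0.40 ± 0.17 SE, limma adjusted p = 0.310), with overlapping groups. Thy1 stood at log2 -0.18. No row was named Col1a1, Col1a2 or Col3a1, the other markers listed. The part of such cells in the lower reads of the 7 genes was not tested.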

How the data were processed

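TT-seq was analysed for 2 siZC3H4 and 3 siNT libraries. Builds mm10 and dm6 and, as tools, cutadapt 1.14, STAR, DESeq2 and featureCounts are named per the submitters' processing notes. Their settings, the strand of counting and the origin of the depth factors are not given in the sources used here. What the authors deposited are signal tables of depth-normalized reads for 13088 genes over exons and 5867 uaRNA regions. In both, values are whole reads divided by 1, 1.15 and 1.172 (siNT replicates 1, 2 and 3) and by 1.767 and 1.046 (siZC3H4 replicates 2 and 3), with 100% of values whole within 0.01 reads. Replicates of a group differed beyond counting noise (chi-square over its degrees of freedom at least 4.49).

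Genes and uaRNAs with a mean of 10 or more over 5 libraries (12482 and 5124) were tested on log2(value + 1) with limma 3.58.1 in R 4.3.3 (trended eBayes, siZC3H4 minus siNT, no block), adjusted by Benjamini-Hochberg over each table, with a threshold of 0.05. Folds are on that scale, which understates changes of low genes. "Rose" and "fell" mean past the threshold. Alternatives were another pseudocount, other filters, rescaling by TMM or the median of ratios, the replicate number as a block, each library left out, and edgeR 4.0.16 and DESeq2 1.42.0 on recovered reads, which called 345 and 537 genes higher and 19 and 97 lower. Without a library labelled siZC3H4, the remaining one is assumed to vary like the siNT libraries.

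The 7 genes, the lists and the tests were chosen with earlier results of these data known. Named besides the 7 are their neighbours, the coding genes nearest in fold, the 5 nearest profiles, and in each list the 2 with most reads and the 2 with the largest fold. Promoter windows are from RefSeq.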

Additional observations from a re-analysis of the deposited data

How the results depend on the processing

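The log2 folds of Lsmem1, Gp5, Celsr3, B4galnt4, Fam162a, Trim35 and Bricd5 stayed below 0 under all 13 alternatives, between -1.90 (Lsmem1) and -0.78 (Bricd5); their choice, by groups that do not overlap, fixes that direction, so it is no sign of stability. Their median lay between -1.07 and -0.90 with each library left out. Counts of calls over all genes depended on single libraries. With each left out, 2 to 677 genes were called higher and 0 to 137 lower, with 2 and 0 without siNT replicate 1 and 677 and 137 without siNT replicate 3. With no filter, 38 were called higher and 0 lower, with DESeq2 537 and 97, and with the median of ratios 29 lower. Replicate numbers 2 and 3 are shared by both groups, but nothing says that they pair the samples; deviations of same-numbered libraries correlated at 0.53 and 0.62 over genes. With the replicate block, 1530 genes were called higher and 830 lower, and 3 neighbours higher (Lrrc15, Ccdc58, 1700001G11Rik) and 1 lower (Ifitm3), in a fit that sets siNT replicate 1 aside. The block ended the uaRNA calls of Atp13a3 (limma adjusted p = 0.0517) and Wdr5b (0.0561). With the block 6 list genes were called higher and 10 lower. Without the block, leaving out a library gave 0 to 2 neighbours higher and 0 to 1 lower, and 0 to 1 list gene higher. With no filter 0 neighbours were called higher. Rescaling the uaRNA table on itself, by TMM or the median of ratios, centres the uaRNAs. It moved the B4galnt4 uaRNA to -1.26 and -1.29 and that of Bricd5 to -1.42 and -1.45, and turned the sign for Atp13a3 (-0.26 and -0.29) and Pgp (-0.020 and -0.045). The Lsmem1 values rest on as few as 29 whole reads in a library.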

Other observations

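Of the coding genes with a fold at or below that of Bricd5 but without a call, 3 came nearest to the threshold. Rgcc, a cell cycle regulator, averaged 28.6 ± 10.9 (SD, n = 2) depth-normalized reads in the libraries labelled siZC3H4 and 87.4 ± 25.9 (SD, n = 3) in siNT libraries (log2 -1.58 ± 0.35 SE, limma adjusted p = 0.0547). Ctsk, the bone-resorbing protease cathepsin K, averaged 61.7 ± 20.9 and 146 ± 25.3 (log2 -1.25 ± 0.28 SE, limma adjusted p = 0.0526). Slc5a5, the sodium-iodide symporter, averaged 273 ± 37.5 and 536 ± 117 (log2 -0.95 ± 0.21 SE, limma adjusted p = 0.0542). In each of the 3 genes both libraries labelled siZC3H4 lay below all siNT libraries.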
